A study of Mus musculus with 2 samples.

Results

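The 10 genes Sprr1a, Sprr3, Krtdap, Sbsn, Sfn, Anxa8, Serpinb5, Lypd3, Psca and Mal were followed through the thymus of newborn mice. They were selected on measured values, namely TPM, expected count and the difference of both between the libraries, as genes known from squamous and cornified epithelium, so the values below are a description without a test. All 10 were found by Ensembl identifier among 43346 genes in both gene tables. The series holds 1 group of 2 libraries: total RNA from the thymus of B6NCrl pups at postnatal day 0, with no treatment or engineered allele named. Replicate 1 holds both lobes of pup 2 and replicate 2 both lobes of pup 3, from pregnant female 1, and the labels give both the same donor record. The spread between the libraries is therefore that of littermates prepared separately. Whole lobes hold many cell types, so a higher share of a cell type and more RNA per cell of that type cannot be told apart here.

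Squamous epithelium is a layered sheet in which dividing basal cells give rise to flattening suprabasal cells. The last layers crosslink envelope proteins, the small proline-rich (SPRR) proteins among them, under the membrane and may lose their nuclei. In the thymus such a program is known from the medulla, where some epithelial cells keratinise late in their own differentiation and can gather into Hassall's corpuscles, while oesophagus, mouth and skin hold the same kind of epithelium in bulk.

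The SPRR members carry a repeat in their coding sequence that can be read directly. Sprr1a (GRCm38 chr3:92483952-92485895, minus strand) and Sprr3 (chr3:92456502-92458720, minus strand) lie 25232 bp apart. In the coding sequence of Sprr1a, 63.0% of bases were identical to the base 24 nt (8 codons) further on, and in Sprr3 49.3% were. In the other 8 members this share was 24.5% to 30.9%. The 96-base stretch with the most such identities is shown for both SPRR genes from GENCODE M21, with bases that match the base 24 nt before or after within the stretch in capitals:
Sprr1a, coding bases 208 to 303: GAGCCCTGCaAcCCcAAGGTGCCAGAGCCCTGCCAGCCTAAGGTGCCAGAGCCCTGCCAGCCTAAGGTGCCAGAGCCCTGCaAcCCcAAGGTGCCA
Sprr3, coding bases 125 to 220: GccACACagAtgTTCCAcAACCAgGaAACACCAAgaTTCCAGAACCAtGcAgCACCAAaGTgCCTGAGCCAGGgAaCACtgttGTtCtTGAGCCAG
Despite the repeat, none of the 100-nt windows of the Sprr1a transcript (707 windows) or of the Sprr3 transcript (1123 windows) occurred in a transcript of another gene, on either strand. Over 100 nt they could therefore be told apart from their paralogues.

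The 250 bases before the transcription start are shown for 4 members: Sprr1a and Krtdap, which were close between the libraries, and Sprr3 and Mal, which were not. They come from RefSeq (GRCm38.p6), which matched 9 of 10 members, and distances count from the RefSeq start. For Sprr1a and Krtdap this start lies inside the gene coordinates given here, so the last bases of these windows fall within the gene. Capitals mark the 4 motifs searched on both strands: the AP-1 site TGANTCA, the TATA box TATAAA, the KLF site GGGNGTGG and the grainyhead site AACNGGTT.
Sprr1a, chr3:92485882-92486131, minus strand: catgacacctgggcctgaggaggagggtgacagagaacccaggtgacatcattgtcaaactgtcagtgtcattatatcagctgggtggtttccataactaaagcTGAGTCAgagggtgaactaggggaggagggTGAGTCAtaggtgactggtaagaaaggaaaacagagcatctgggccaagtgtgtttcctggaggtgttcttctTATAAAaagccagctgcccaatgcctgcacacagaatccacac
Sprr3, chr3:92458721-92458970, minus strand: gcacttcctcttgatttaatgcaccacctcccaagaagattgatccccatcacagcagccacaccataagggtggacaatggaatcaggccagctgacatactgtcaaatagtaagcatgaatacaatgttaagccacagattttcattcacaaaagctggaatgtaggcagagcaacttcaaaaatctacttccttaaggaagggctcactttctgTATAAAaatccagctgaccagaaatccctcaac
Krtdap, chr7:30787655-30787904, plus strand: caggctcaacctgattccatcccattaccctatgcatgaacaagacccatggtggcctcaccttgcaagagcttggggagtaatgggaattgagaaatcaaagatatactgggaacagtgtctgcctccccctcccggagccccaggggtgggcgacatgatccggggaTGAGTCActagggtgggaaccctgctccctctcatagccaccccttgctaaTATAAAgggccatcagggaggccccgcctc
Mal, chr2:127656696-127656945, minus strand: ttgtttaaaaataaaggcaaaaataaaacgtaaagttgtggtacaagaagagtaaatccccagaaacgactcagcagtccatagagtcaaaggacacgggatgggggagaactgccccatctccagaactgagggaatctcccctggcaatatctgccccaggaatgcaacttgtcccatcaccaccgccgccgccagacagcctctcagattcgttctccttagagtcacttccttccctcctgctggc
The AP-1 letters stood in 4 of the 9 member windows (Sprr1a, Krtdap, Sbsn and Serpinb5) and in 6.75% of all 32817 windows of the same length. Sprr1a held them at 146 to 140 and at 116 to 110 bases before the start. The TATA letters stood in 3 of the 9 (Sprr1a, Sprr3 and Krtdap) and in 12.4% of all windows, between 43 and 25 bases before the start in these 3. The KLF letters stood in 1 (Serpinb5; 15.9% of all windows) and the grainyhead letters in 1 (Sfn; 1.78%). The windows of Mal, Anxa8 and Lypd3 held none of the 4. A match is a description of these letters only.

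Levels of the 10 genes covered a wide range. In TPM, a relative transcript abundance scaled for length and library, the mean over both libraries was highest for Sfn at 52.3 ± 3.78 (SD, n = 2) and lowest for Sprr3 at 0.590 ± 0.750, an 88.6-fold range of levels. Of the 10 members, 8 were detected, meaning at least 1 TPM in both libraries, as were 32.2% of all genes. The median level of these 8 was 13.6 TPM, beside 15 TPM over all detected genes, and that of all 10 members was 13.3 TPM. The depth was 39045711 expected counts in replicate 1 and 41576378 in replicate 2, expected counts being the authors' estimated reads per gene.

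**Figure D1:**
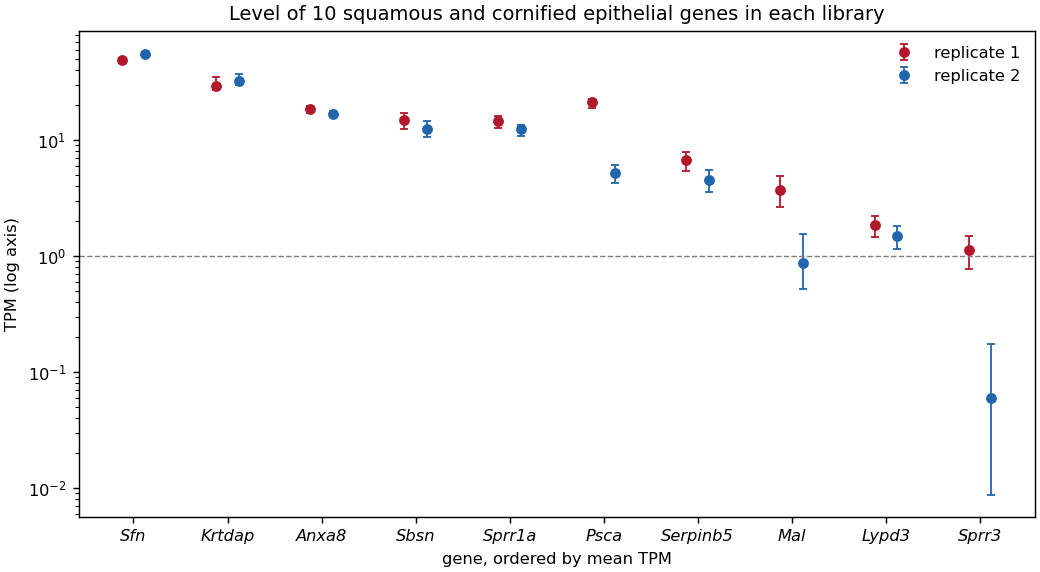
Level of each gene in TPM (log axis) in replicate 1 (red) and replicate 2 (blue), ordered by mean level; bars are the authors' deposited interval of each estimate, and the dashed line is 1 TPM. The intervals of Psca, Mal and Sprr3 do not overlap between the libraries, with replicate 1 the higher, and those of Sfn do not overlap, with replicate 2 the higher.

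In order of mean level, Sfn was followed by Krtdap (31.0 ± 1.93 TPM), Anxa8 (17.9 ± 1.24), Sbsn (13.7 ± 1.62), Sprr1a (13.4 ± 1.53), Psca (13.2 ± 11.3), Serpinb5 (5.63 ± 1.51), Mal (2.29 ± 1.99), Lypd3 (1.68 ± 0.255) and Sprr3. Sfn, Krtdap and Anxa8 kept separate ranges over the libraries, as did Anxa8 and Sbsn. Sbsn and Sprr1a overlapped each other, and the range of Psca reached from that of Serpinb5 to above that of Anxa8. Mal overlapped both Lypd3 and Sprr3 in range.

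Among the envelope and late-differentiation members, Sprr1a and Sprr3 differed in behaviour although they are neighbours. Sprr1a, an SPRR envelope precursor, stood at 14.5 and 12.4 TPM in replicates 1 and 2, from 303 and 278 counts. Scaled by library size, its counts were 1.14-fold higher in replicate 1, with a 95% exact interval from counting error alone of 0.965 to 1.35, so the libraries could not be told apart for Sprr1a. Sprr3, known from oesophageal and oral epithelium, stood at 1.12 and 0.0600 TPM, from 37 and 2 counts. Its scaled ratio was 19.3, with an interval of 4.99 to 166. With so few counts the size depends on the unit and the prior count: the log2 ratio was 3.96 at a prior count of 0.5, 2.62 at a prior count of 5, 2.93 from TPM and 2.75 from FPKM, each on the side of replicate 1. The next SPRR genes along the chromosome were Sprr1b, 17713 bp from Sprr3, with 20 and 13 counts, and Sprr4, 14368 bp from Sprr1a, with 0 and 4 counts. A count of 0 allows up to 3 counts. Intervals here and below describe counting error alone and treat each read as independent. Several reads may stem from 1 molecule, so the intervals may be too narrow.

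Krtdap and Sbsn, genes of differentiating keratinocytes, lie on both sides of dermokine (Dmkn), a secreted keratinocyte protein, within a single stretch of chromosome 7. Krtdap (chr7:30787896-30791097, plus strand) had 29.6 and 32.3 TPM in replicates 1 and 2, from 272 and 327 counts, and was 1.15-fold higher in replicate 2 (interval 0.976 to 1.36). Dmkn had 10.45 and 8.84 TPM. Sbsn (suprabasin, chr7:30751471-30756134, plus strand) had 14.8 and 12.5 TPM, from 212 and 184 counts, and was 1.20-fold higher in replicate 1 (0.984 to 1.48). The interval of the whole Krtdap row includes 1, so no difference between the libraries was detectable for that row at this depth. That of the deposited Sbsn row includes 1 as well, but the row holds more than the transcripts of Sbsn.

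Most of the deposited level of Sbsn rested on a transcript that a later annotation gives to another gene. The authors' tables place a 456-nt transcript in the Sbsn row, and GENCODE M21 names it Tmem147os-203, a noncoding transcript of a gene that overlaps Sbsn on the same strand. It took 76.5% of the TPM of the row in replicate 1 and 86.4% in replicate 2, or 56.3% and 66.8% of its counts. Without it, Sbsn was at 3.49 and 1.71 TPM, from 92.4 and 61.0 counts, and was 1.58-fold higher in replicate 1 (1.13 to 2.22). The Tmem147os transcript alone stood at 11.3 and 10.8 TPM, a ratio of 1.01 (0.780 to 1.31). Of its 357 windows of 100 nt, 181 (50.7%) also occur in transcripts of Sbsn in M21. How reads were divided between them depends on the authors' estimate, which used the earlier annotation M4. There the transcript Sbsn-201 is 2049 nt, against 2221 nt in M21, and the overlap on M4 was not measured. Without the Tmem147os transcript the level of Sbsn was below that of Serpinb5 in both libraries.

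**Figure D2:**
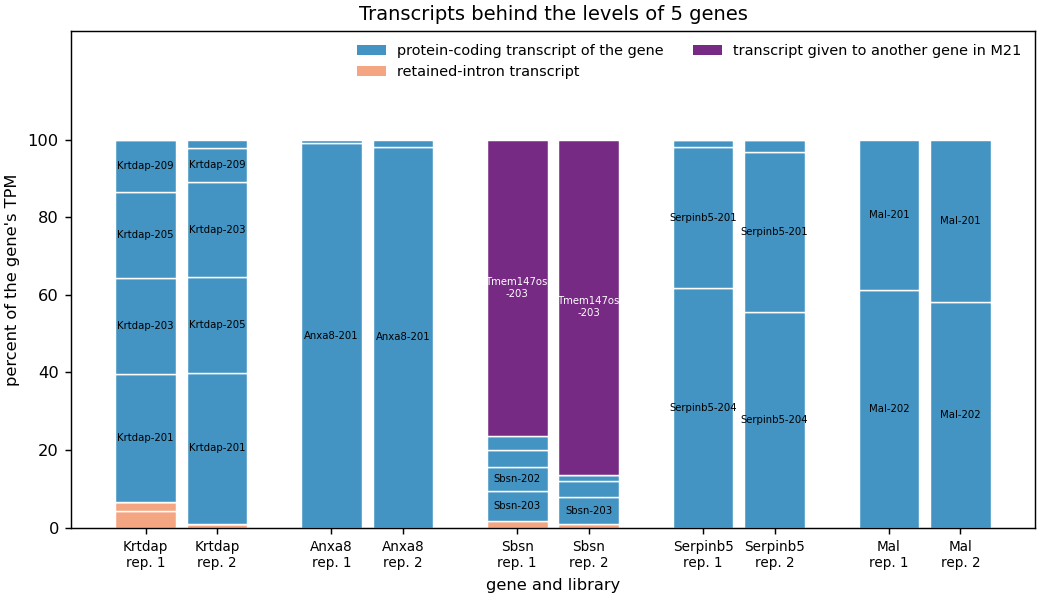
Percent of the TPM of each gene assigned to each transcript (stacked bars, vertical axis) in replicates 1 and 2, for the 5 genes with more than 1 transcript. Blue marks protein-coding transcripts of the gene, orange retained introns, and purple the transcript in the Sbsn row that belongs to Tmem147os, at 76.5% and 86.4%.

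The other 4 genes with several annotated transcripts were mostly assigned to protein-coding ones. For Krtdap, 5 protein-coding transcripts held 93.5% and 99.1% of TPM, led by the 470-nt transcript at 33.0% and 39.0%, and retained-intron transcripts held 6.54% and 0.890%, from 12.3 and 2.47 counts. The protein-coding transcripts of Krtdap alone had a scaled ratio of replicate 1 over replicate 2 of 0.837 (0.708 to 0.988). Its retained-intron transcripts had 5.2 (1.4 to 57.7), and both rest on the authors' division of reads. Its transcripts are short, at a mean length of 411 and 417 nt, so its TPM is high for its counts. The 1880-nt transcript of Anxa8 held 99.05% and 98.2% of its TPM. Serpinb5 was divided between a 654-nt transcript (61.8% and 55.5%) and a 2572-nt one (36.3% and 41.4%), although by counts the long transcript led, at 177 and 149 against 67.75 and 44.65. Mal was divided between a 2778-nt transcript (61.3% and 58.1%) and a 486-nt one (38.7% and 41.9%).

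The signalling and membrane members Sfn and Anxa8 were the deepest covered. Sfn (stratifin, chr4:133600556-133602168, minus strand), an epithelial adaptor that binds phosphorylated proteins and restrains the cell cycle, had 49.6 and 54.9 TPM, from 2214 and 2646 counts. It was 1.14-fold higher in replicate 2, with an interval of 1.08 to 1.21 that excludes 1, yet 35.3% of all tested genes differed by at least as much in either direction. Anxa8 (chr14:34085981-34100571, plus strand), a calcium-dependent membrane-binding protein of stratified epithelium, had 18.7 and 17.0 TPM, from 980 and 955 counts, a ratio of 1.07 (0.981 to 1.17). The gene A630023A22Rik overlaps Anxa8 on the opposite strand and had 3 and 1 counts, so little of the Anxa8 region was assigned to it.

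Serpinb5 and Lypd3 were low and lay within 1.31-fold between the libraries in scaled counts, though the interval of Serpinb5 excluded 1. Serpinb5 (maspin, chr1:106861173-106883348, plus strand), a serpin of basal and suprabasal epithelium, had 6.70 and 4.56 TPM, from 255 and 204 counts, and was 1.31-fold higher in replicate 1 (1.08 to 1.58). Of all tested genes, 12.0% differed by at least as much. Its neighbour Serpinb12, 51101 bp away, had 4.42 and 3.54 TPM. Lypd3 (chr7:24636550-24641118, plus strand), a lipid-anchored surface protein of suprabasal cells, had 1.86 and 1.5 TPM, from 83.9 and 73.0 counts, a ratio of 1.20 (0.869 to 1.67). The antisense gene Gm26550 overlaps its start and had 4.08 and 3 counts. Strand use is not given in the sources used here, so reads of such overlapping pairs cannot be told apart.

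Psca and Mal, by contrast, were several-fold higher in the library of replicate 1. Psca (chr15:74714839-74717069, plus strand), a small lipid-anchored surface protein of mucosal epithelium, stood at 21.2 and 5.20 TPM in replicates 1 and 2, from 476 and 126 counts. It was 3.95-fold higher in replicate 1 (3.24 to 4.85). Mal (chr2:127633226-127656695, minus strand), a membrane-spanning protein of apical transport that is also made by T cells and myelinating cells, had 3.69 and 0.880 TPM, from 195 and 48 counts, and was 4.25-fold higher (3.08 to 5.96). The genes on each side did not share the difference: Jrk and Them6, 5304 and 4135 bp from Psca, had 3.62 and 3.10 TPM and 11.6 and 10.8 TPM. Mrps5 and Mall beside Mal had 123 and 129 TPM and 1.37 and 2.11 TPM.

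Over the members, 9 had a mean expected count of at least 50 and were compared between libraries on the log2 scale of TMM-scaled counts with a prior count of 0.5. Of these, 2 (Psca and Mal) were over 2-fold higher in replicate 1, beside 1.15% of the 14155 genes compared, and 0 were over 2-fold higher in replicate 2, beside 0.198%. The members were chosen with this difference known, so nothing is read from the share. Sprr3, at a mean of 19.5 counts, fell under the minimum, and at a minimum of 10 counts 3 members were over 2-fold higher in replicate 1, beside 3.48% of genes. The other 7 members lay within 1.31-fold as deposited, with Sbsn at 1.58-fold without the Tmem147os transcript, and 95.3% of all genes compared lay within 1.5-fold. The median log2 ratio of replicate 1 over replicate 2 was 0.26 over the members and -0.02 over all genes compared. Among the 14155 genes, 22 had a ratio as high as Psca and 18 as high as Mal, these genes included. The members were chosen with this difference known, so nothing is read from these ranks either. Scaling on spike-ins instead lowered every ratio, leaving Psca and Mal over 2-fold higher in replicate 1 but turning Sprr1a (-0.50), Sbsn (-0.42), Anxa8 (-0.59), Serpinb5 (-0.30) and Lypd3 (-0.42) to the side of replicate 2. The direction of those 5 genes therefore depends on the scaling, while Psca, Mal, Sprr3, Krtdap and Sfn kept theirs. With 1 library per pup these values compare the 2 libraries, and no test between groups exists.

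**Figure D3:**
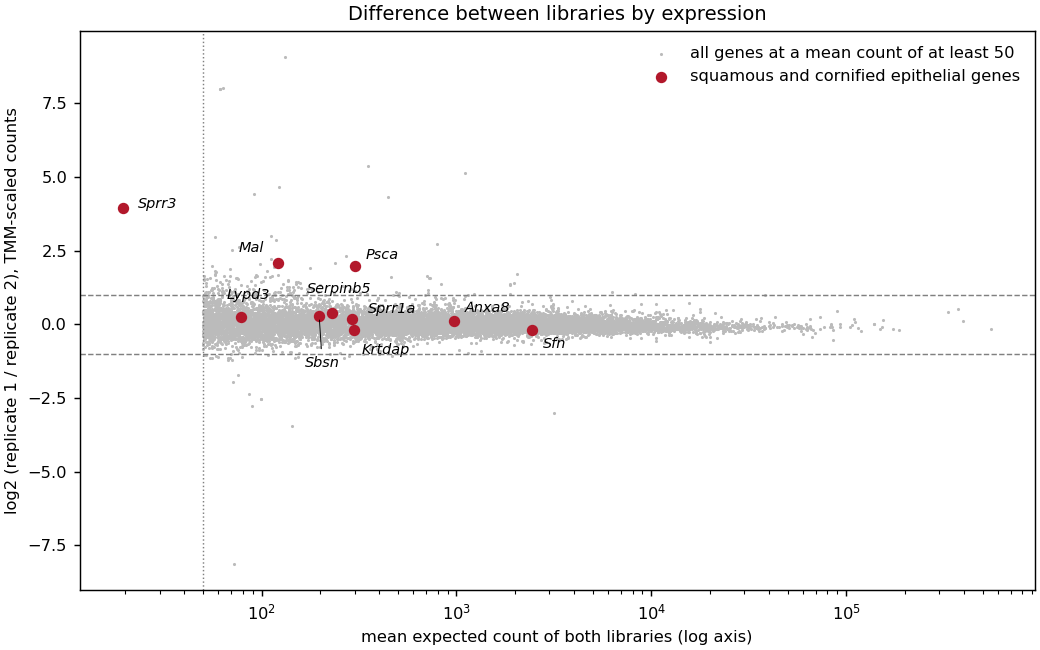
Log2 ratio of replicate 1 over replicate 2 (vertical axis) against the mean expected count (log axis) for all genes at a mean count of at least 50 (grey) and for the 10 members (red). Sprr3, Mal and Psca lie above the upper dashed line of a 2-fold difference, the other 7 lie inside the lines, and the dotted line is the count minimum.

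Other genes of the cornified envelope and late differentiation were mostly low. This list holds envelope proteins and also crosslinking enzymes, proteases and partners that are not part of the envelope. Of 60 such genes besides the members, 19 (31.7%) were detected, beside 32.2% of all genes. Of the 20 compared, at a median log2 ratio of 0.12, 0 were over 2-fold higher in replicate 2, beside 0.198% of all genes compared. In replicate 1, 1 was over 2-fold higher, beside 1.15%. That gene was cornifelin (Cnfn), at 9.27 and 3.37 TPM. Of the 40 genes under the minimum count, 6 had counting intervals wholly on the side of replicate 1 and 1, Klk5 (9 and 25 counts), on that of replicate 2. No such count was made over all genes under the minimum, so nothing is read from these numbers. The 6 were the protease Tmprss11a (51 and 5 counts, ratio 10.7, 4.28 to 34.3), the protease inhibitor Csta1 (26 and 4 counts, ratio 6.80, 2.36 to 26.8), Calml3 (35 and 12), Gjb6 (34 and 14), Lor (32 and 13) and Tgm3 (9 and 1). The highest were Ly6d (280 and 326 TPM), a surface protein also made by lymphoid precursors, Sprr2a2 (202.1 and 211.1 TPM), whose reads may be shared with near-identical SPRR2 copies, S100a16 (114 and 112 TPM) and S100a14 (33.1 and 37.4 TPM). The crosslinking enzyme Tgm1 had 2.35 and 1.68 TPM and the protease Asprv1 7.90 and 5.82 TPM. Proteins of the last epidermal layers were near the floor: involucrin (Ivl) had 11 and 7 counts, and filaggrin (Flg) 0 in both libraries. The epidermal and hair marker list as a whole (14 genes) had 2 detected, Krt10 (12.2 and 11.6 TPM) and Krt71 (1.37 and 1.21 TPM), and summed to 17.4 and 16.1 TPM. Against the cornified label, then, several envelope genes were present while the defining epidermal gene Flg had no count and Ivl and Lor were low.

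The transcription factors of squamous fate that could be compared, and the desmosome genes, stayed within 2-fold. Of 25 regulators 13 were detected, and of the 17 compared 0 passed 2-fold in either direction, at a median log2 ratio of 0.10. Trp63, the factor of stratified epithelial identity, had 16.8 and 17.9 TPM, Klf4 2.78 and 2.48 TPM and Grhl3 1.00 and 0.650 TPM. Of 8 regulators under the minimum count, 2 had counting intervals wholly on the side of replicate 1 and 0 on that of replicate 2. The 2 were Pitx1 and Sox2, factors of oral and foregut epithelium, at 40 and 2 counts (ratio 20.9, 5.42 to 179) and at 12 and 0 counts. The share over all genes under the minimum was not counted, so nothing is read from these 2 genes. Foxn1, the factor of thymic epithelial identity, was 1.53-fold higher in replicate 2 (1.44 to 1.63), at 18.4 and 27.4 TPM. Desmosome genes, which join epithelial cells, had 9 of 16 detected and 0 of 10 over 2-fold, at a median of -0.09. Perp (87.9 and 86.9 TPM) led them, and Dsg2 had the largest ratio, at 6.77 and 3.97 TPM.

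Keratins of stratified epithelium differed by very unequal amounts. Of 18, 8 were detected and 11 compared. Of the 11, 4 (Krt4, Krt13, Krt15 and Krt6a) were over 2-fold higher in replicate 1, beside 1.15% of the 14155 genes compared. In replicate 2, 0 were over 2-fold higher, beside 0.198%. The keratin list was chosen with earlier results of these data known, so nothing is read from these shares. Krt4 and Krt13, the suprabasal pair of oesophagus and mouth, had 35.8 and 0.990 TPM and 14.96 and 0.580 TPM, ratios of 35.0 (27.3 to 45.7) and 42.2 (26.2 to 72.9). The basal pair Krt5 (96.3 and 91.3 TPM) and Krt14 (39.6 and 34.0 TPM) and the epidermal suprabasal Krt10 stayed close. Krt15, another basal keratin, was 6.62-fold higher in replicate 1 (5.74 to 7.67), at 29.2 and 4.28 TPM.

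**Figure D4:**
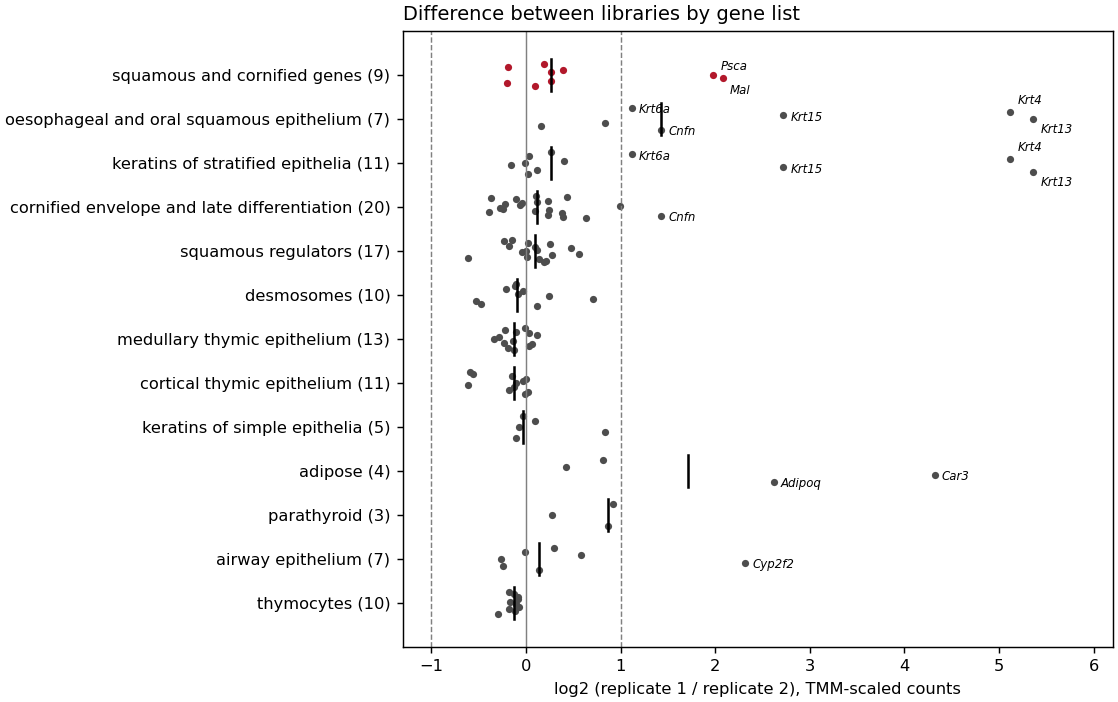
Log2 ratio of replicate 1 over replicate 2 (horizontal axis) for each gene with a mean count of at least 50, by gene list (number of such genes in parentheses); the short black line is the median of the list and dashed lines mark 2-fold. The oesophageal and oral list has its median at 1.43, while medullary and cortical epithelium and thymocytes each have theirs at -0.13. The lists were chosen with earlier results of these data known, and some genes stand in more than 1 list.

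Markers of other cell types that the lobes could hold were set beside Psca, Mal and Sprr3. These lists were chosen with earlier results of these data known, so they are a description only. Over all 14155 genes compared, 1.15% were over 2-fold higher in replicate 1 and 0.198% in replicate 2. Nothing is read from the list counts beside these shares. The oesophageal and oral squamous list had 5 of 7 compared genes over 2-fold higher in replicate 1. These were Krt4, Krt13, Krt15, Krt6a and Cnfn, all counted already among the keratins or the envelope genes above. The list had a summed level of 347 and 189 TPM over its 12 genes. Most of that sum came from Endou (127.9 and 110.6 TPM, 1.12-fold higher in replicate 1) and Gsto1 (121.8 and 65.8 TPM, 1.79-fold), and the other 10 genes summed to 97.5 and 12.8 TPM. Crnn (11 and 11 counts) and Rhcg (27 and 30 counts) had intervals that include 1, and Sox2 had 0 counts in replicate 2. Of 4 adipose genes under the minimum, Cfd, Cidec, Plin1 and Ucp1, all had intervals above 1, again without a share over all such genes beside it. Adipose genes had 2 of 4 over 2-fold higher in replicate 1 (Car3, 19.3 and 1.07 TPM, and Adipoq, 3.75 and 0.580 TPM), with sums of 301 and 199 TPM over 8 genes and Plin1 at 0 counts in replicate 2. Parathyroid genes had 0 of 3 over 2-fold, all 3 higher in replicate 1, with sums of 84.7 and 46.4 TPM over 5 genes, and Gcm2 had 4 counts in each library. Airway genes had 1 of 7 over 2-fold (Cyp2f2, 8.63 and 1.67 TPM), with sums of 238 and 208 TPM over 12 genes. Of 5 airway genes under the minimum count, 2 had intervals wholly on the side of replicate 2 and 0 on that of replicate 1. The 2 were the secretory genes Scgb3a2 (21 and 78 counts) and Scgb3a1 (24 and 60 counts). They were higher in replicate 2 by 3.55-fold (2.17 to 6.06) and 2.39-fold (1.47 to 4.01), again without a share over all such genes. Among the compared airway genes, the secretory gene Scgb1a1 was close (9.08 and 8.84 TPM), with an interval that includes 1. Bpifa1 was slightly higher in replicate 1 (174.5 and 153.5 TPM). The part of these cell types in the difference of Psca, Mal and Sprr3 was not tested.

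Genes of thymic epithelium and thymocytes stayed within 2-fold where compared. The medullary list had 0 of 13 compared genes over 2-fold, with sums of 676 and 715 TPM over 14 genes, and the cortical list 0 of 11, with sums of 5835 and 6139 TPM. Thymocyte genes had 0 of 10 over 2-fold and all 10 were slightly higher in replicate 2, with sums of 4859 and 5059 TPM. Mal is also a T-cell gene, and the part of T cells in its difference was not tested. Glands (0 of 2; 9 genes, 11.4 and 13.8 TPM, Prol1 at 0 in both) and skeletal muscle (0 of 6; 7 genes, 66.0 and 83.1 TPM) were not higher in replicate 1. Mature thymocyte genes (0 of 8, sums of 438 and 385 TPM) stayed within 2-fold. Of 2 thyroid genes compared 1, Slc5a5, was over 2-fold higher in replicate 2, beside 0.198% of all genes compared.

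The genes outside all lists with levels most like those of Mal and Psca were found by distance on log2(TPM + 1) over the 2 libraries, among 12699 protein-coding genes. For Mal they were Cdk15 (3.60 and 1.21 TPM, distance 0.23), Ppbp (2.87 and 1.12 TPM, 0.33) and Lrrc26 (2.95 and 1.18 TPM, 0.33). For Psca they were Stfa1 (20.98 and 7.33 TPM, 0.43), Hist1h4f (14.2 and 7.25 TPM, 0.68) and Hist1h3f (15.1 and 8.20 TPM, 0.73), of which all 3 belong to families of near-identical copies whose reads are uncertain. A likeness over 2 libraries is a description of these levels.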

How the data were processed

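Total RNA (10 ng, molecules above 200 nt, spike-ins added) was made into 1 library for each pup, per the labels. Expected counts, TPM, FPKM, the percent of a gene's TPM per transcript and an interval of each TPM (bounds on the TPM scale, treated as a score, level not stated) were deposited by the authors in gene and transcript tables on mm10 with annotation M4, per the deposited read-me texts. Aligner, quantifier and strand use were not given in the sources used here. Estimated counts were deposited without normalization; TPM and FPKM were scaled by the authors for length and library.

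Genes were named through GENCODE M21 (GRCm38) by identifier without version, which matched 42462 of 43346 gene rows; unnamed gene rows held 0.266% and 0.225% of counts. Spike-in and other non-gene rows (26345, 0.00179% and 0.00107% of counts) were left out. Counts, rounded only to compute the factors, were scaled with TMM (edgeR 4.0.16, R 4.3.3; factors 1.01 and 0.991), and the log2 ratio of replicate 1 over replicate 2 used a prior count of 0.5. Over 2-fold at a mean count of at least 50 was the call. Intervals are 95% exact (Clopper-Pearson) intervals of the split of rounded counts. A gene at 0 could have had up to 3 counts (0.0768 and 0.0722 CPM). edgeR's biological coefficient of variation over 17258 genes was 11.7%, which holds technical spread too. With 1 group no test and no paired comparison were made.

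The members and the 11 gene lists and 12 marker lists were chosen with earlier results of these data known. Genes could be named if they were members, list genes, the nearest protein-coding gene on each side of a member, or the 3 genes most like each of the 2 members with the largest ratio at a mean count of at least 50; Tmem147os, A630023A22Rik and Gm26550 were named after their values or overlap were seen. Alternatives changed scaling (DESeq2 1.42.0, spike-ins, totals), unit, prior count, count minimum, fold and detection threshold; Sbsn without the Tmem147os transcript and the count of list genes under the minimum whose interval excludes 1 were added after seeing the data. The procedure was also tested on simulated counts of 43346 genes in a pair of libraries, with the same coefficient of variation of 11.7% for every gene. The changed genes were drawn at a mean count of at least 100. Of 100 genes changed 4-fold 100% were found over 2-fold, of 100 changed 1.5-fold 4%, and of 13935 unchanged 0.0574%. Changed genes of lower counts and genes of larger spread were not simulated. Other software was matplotlib 3.10.9, scipy 1.17.1, numpy 2.4.6 and pandas 2.3.3 under Python 3.11.15.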

Additional observations from a re-analysis of the deposited data

How the results depend on the processing

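Psca and Mal stayed over 2-fold higher in replicate 1 under DESeq2 size factors, spike-in scaling, total counts, TPM, FPKM, a prior count of 5 and a fold threshold of 1.5, and 0 members were over 2-fold higher in replicate 2 under the alternatives run for that count. The number higher in replicate 1 was 3 at a minimum count of 10 or none, and 0 at a minimum of 500, which leaves 2 genes (Sfn and Anxa8) and a median log2 ratio of -0.05. Scaling on the 659 and 427 spike-in counts moved the median of all genes compared from -0.02 to -0.71 and that of the members from 0.26 to -0.42, so differences hold relative to the bulk of genes; Psca and Mal were then at 1.29 and 1.39. Under 5 other settings of scaling, unit or prior count all 10 ratios stayed inside their counting intervals, which for Sprr3 is wide: its log2 ratio ran from 2.62 to 3.99. With each library alone the median level of the members was 8.78 to 14.7 TPM and 8 to 10 were detected. Without the Tmem147os transcript the log2 ratio of Sbsn was 0.66 and the median level of the members 9.42 TPM. Depth limits Sprr3 (37 and 2 counts) most, and it also limits Lypd3, Mal and Sbsn without the Tmem147os transcript.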

Other observations

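Relatives of the members were mostly within 2-fold between the pups where their counts allowed a comparison. Of the 6 Ywha genes that are relatives of stratifin, all were detected and 0 were over 2-fold apart, at a median log2 ratio of -0.08; each was close to or above the level of Sfn, from Ywhag (49.6 and 49.4 TPM) to Ywhaz (649 and 651 TPM). Annexins other than Anxa8 had 8 of 11 detected and 0 of 8 over 2-fold, led by Anxa2 (590.2 and 590.6 TPM), with Anxa1, abundant in squamous epithelium and myeloid cells, at 86.7 and 63.1 TPM. Among 20 other clade B serpins 9 were detected. Of 9 compared, 1, Serpinb10 (3.42 and 1.65 TPM), was over 2-fold higher in replicate 1, beside 1.15% of all genes compared.

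Relatives of Lypd3 and Psca with the same protein fold had 17 of 27 detected and 0 of 15 over 2-fold, at a median log2 ratio of -0.24, with Ly6e (1538 and 1753 TPM) and Ly6d the highest. Relatives of Mal had 10 of 13 detected and 0 of 11 over 2-fold, at a median of -0.07, with Cmtm7 at 190 and 197 TPM and Mal2 at 1.00 and 1.02 TPM. Among SPRR genes other than Sprr1a and Sprr3, 5 of 13 were detected and 0 of 3 compared were over 2-fold apart.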
